A study of Mus musculus with 12 samples.

Results

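The folliculin, TFE3 and TSC genes considered here are 10 genes of nutrient sensing at the lysosome, taken by symbol from the 57180 genes of the transcript-to-gene map: *Flcn*, *Fnip1*, *Fnip2*, *Tfe3*, *Tfeb*, *Rragc*, *Rragd*, *Tsc1*, *Tsc2* and *Deptor*. All 10 passed the minimum of 10 counts over all libraries and were among the 25446 genes tested. RNA-seq was done on 12 libraries of the mouse embryonic stem cell (ESC) line E14, engineered to carry a doxycycline-inducible CRISPR interference repressor (DOX-CRISPRi, a single clone). The Neg cells carry scramble guides, and the 3xKD cells carry guides placed at the transcription starts of *Pcx* (pyruvate carboxylase), *Me1* and *Me2* (malic enzymes). All 4 groups carry the repressor, with 3 libraries in each group. Neg ESCs and 3xKD ESCs were in 2i/LIF medium (day 0 of induction). Neg EpiLCs and 3xKD EpiLCs had 2 days of induction to epiblast-like cells. Per the study's methods, ESCs stayed in their medium over the same time and all cells were harvested in parallel. Doxycycline treatment of all 4 groups is not named in the sample labels and was taken from the study's description of this experiment. By that description treatment began before these 2 days and went on through them. The cell-type field of the labels names all Neg samples ESCs and all 3xKD samples EpiLCs, so states were taken from the sample titles, and the marker levels given further on differ by these titles.

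In ESCs, folliculin (FLCN) and its partners FNIP1 and FNIP2 form a complex that acts on the small GTPases RagC and RagD at the lysosome. This lets the kinase complex mTORC1 hold the transcription factors TFE3 and TFEB in the cytoplasm, and leaving naive pluripotency needs TFE3 to be kept out of the nucleus, where it maintains *Esrrb*. TSC1 and TSC2 form the complex that switches off the mTORC1 activator RHEB, and DEPTOR binds and inhibits mTOR itself. RNA levels report neither where TFE3 is in the cell nor how active mTORC1 is.

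*Fnip1* and *Rragc*, 2 of the 9 genes with a promoter entry, hold in their promoters the letters CACGTG, shown in capitals here. These letters are the core of the site that TFE3 and TFEB are known to bind. The sequences are RefSeq promoter sequences, found once each in GRCm39, and run 5′ to 3′ on the gene's strand up to the first annotated base of the gene.
*Fnip1*, chr11:54328755-54328977, plus strand: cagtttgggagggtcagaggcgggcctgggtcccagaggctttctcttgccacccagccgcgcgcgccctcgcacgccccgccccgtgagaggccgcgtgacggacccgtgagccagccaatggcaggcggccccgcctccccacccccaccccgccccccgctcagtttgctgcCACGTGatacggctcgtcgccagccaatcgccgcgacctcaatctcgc
*Rragc*, chr4:123810976-123811216, plus strand: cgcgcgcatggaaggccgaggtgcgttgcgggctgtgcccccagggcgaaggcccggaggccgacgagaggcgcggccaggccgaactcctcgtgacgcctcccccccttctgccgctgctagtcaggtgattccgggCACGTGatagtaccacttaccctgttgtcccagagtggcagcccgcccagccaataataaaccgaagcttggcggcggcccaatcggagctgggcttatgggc
The capitals begin at position -75 of the RefSeq start in *Fnip1* and at position -112 in *Rragc*. CACGTG, the same on both strands, was searched for in the 300 bases from 250 before the start to 50 after it. Of the 9 genes with a promoter entry these 2 hold it. By windows this is 2 of 12, against 7.15% of 32851 promoters. The longer TCACGTGA, which contains CACGTG, was in none of the 12 windows and in 0.974% of promoters. *Deptor* has no entry. A match describes letters only, and binding was not measured.

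Each library held between 11221023 and 19652197 estimated counts. Both lines moved between states: the summed level of 8 naive markers lay between 5099 and 5258 CPM (counts scaled to the library's total, with TMM factors) in Neg ESCs, between 3986 and 4061 in 3xKD ESCs, between 308 and 322 in Neg EpiLCs and between 454 and 469 in 3xKD EpiLCs. The summed level of 8 formative markers was 286 to 300.1 CPM in Neg ESCs, 322 to 329 in 3xKD ESCs, 3232 to 3628 in Neg EpiLCs and 1829 to 1895 in 3xKD EpiLCs. Of the other lineages, 5 fibroblast markers summed to between 3.82 and 8.62 CPM over all libraries, 7 primitive endoderm markers to between 22.4 and 33.1, 5 mesoderm markers to between 19.5 and 32.4 and 4 neuroectoderm markers to between 54.2 and 81.7 in ESCs and 3xKD EpiLCs and between 118 and 123 in Neg EpiLCs. The targeted genes were lower in 3xKD cells in both states, with called log2 fold changes between -0.89 (*Me1* in ESCs) and -1.14 (*Pcx* in ESCs). In bulk RNA, fewer cells in a state and less RNA per cell cannot be told apart.

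**Figure D1:**
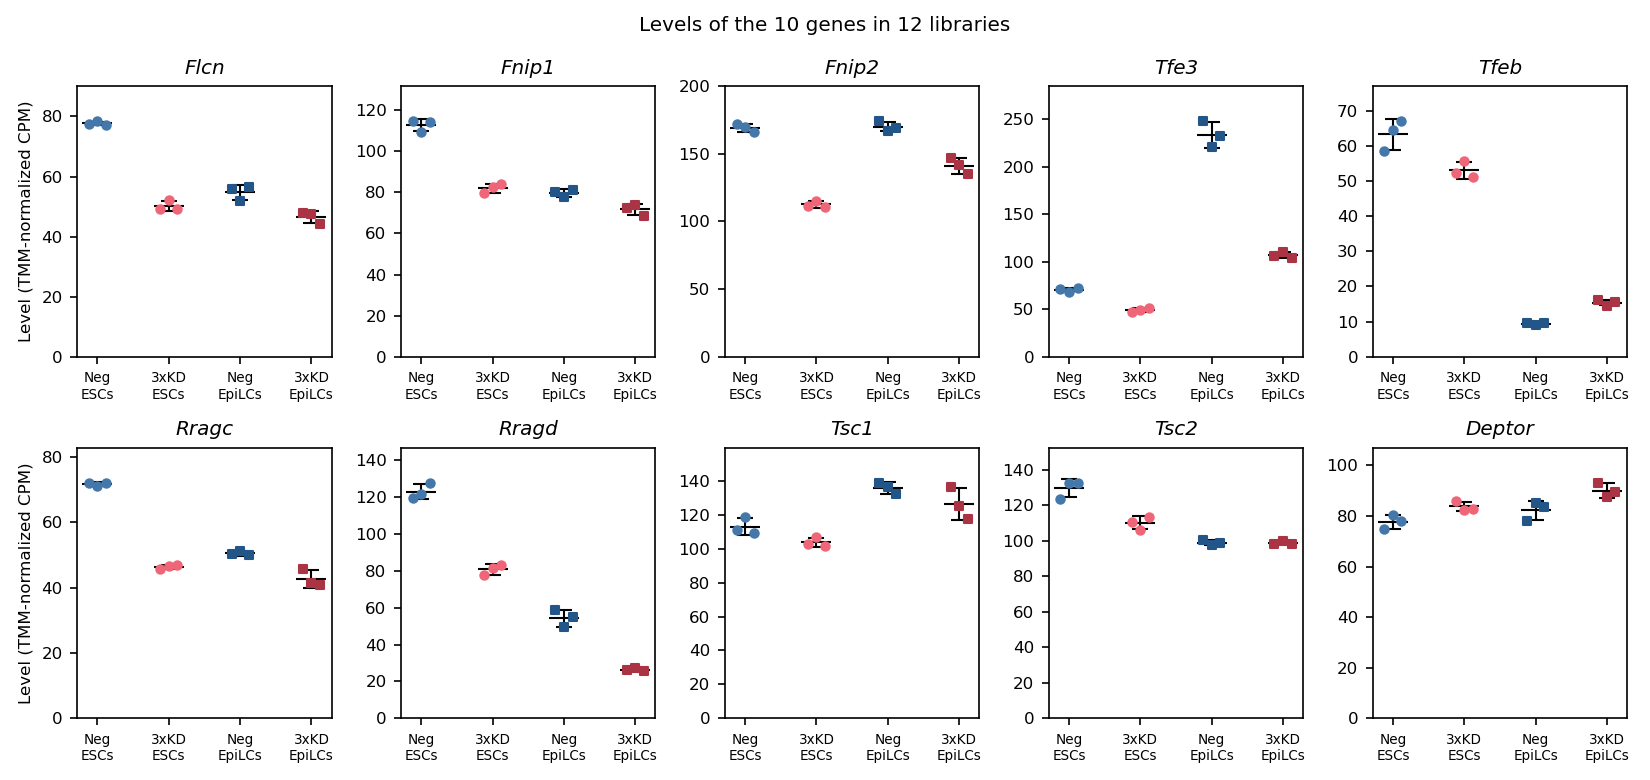
Level (TMM-normalized CPM, axes from 0) of the 10 genes in the 12 libraries, with 1 panel per gene; points are libraries, bars the mean ± SD of 3. *Flcn*, *Fnip1*, *Fnip2*, *Rragc* and *Rragd* stand lower in 3xKD ESCs than in Neg ESCs, *Tfe3* is highest in Neg EpiLCs (220.4 to 248 CPM) and *Tfeb* lowest there (9.13 to 9.49 CPM).

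The first question was how these genes differ between 3xKD and Neg ESCs. The lines were transfected separately with their guides, so the knockdown and other differences between the lines cannot be told apart. The effect of the knockdown means this difference between the lines throughout. Over 454 genes of chromosome 16, where none of the 10 genes lies, the median log2 fold change was 0.30 in both states. On the other autosomes and X it lay between -0.05 and 0.06, and the cause was not tested. *Flcn*, *Fnip2*, *Rragc* and *Rragd* were about 1.5-fold lower in 3xKD ESCs, *Tfe3* and *Fnip1* were lower by less, and *Tsc1* and *Deptor* differed little. A gene was called when edgeR's quasi-likelihood test gave it a Benjamini-Hochberg adjusted p under 0.01 and its log2 fold change was above 0.58 in size. By this rule 4 of the 10 genes were called, all lower (*Flcn*, *Fnip2*, *Rragc* and *Rragd*), where 15.3% of all genes were called, 8.5% higher and 6.78% lower. Without the fold limit 8 of the 10 passed, against 31.6% of all genes, and in all 10 the Neg and 3xKD libraries did not overlap, against 49% of all genes. Their median log2 fold change was -0.49, and that of all genes 0.03.

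*Flcn*, the GTPase-activating subunit of the folliculin complex (chr11:59682196-59701138, minus strand), stood at 77.5, 78.4 and 77.2 CPM in Neg ESCs and at 49.1, 52.1 and 49.2 CPM in 3xKD ESCs. The lowest Neg library lay far above the highest 3xKD library, and the log2 fold change was -0.63 ± 0.05 (SE; edgeR adjusted p = 1.22e-08). *Fnip2* (chr3:79363280-79475188, minus strand), one of the 2 alternative partners of folliculin, fell from 172, 169.9 and 166 CPM to 112, 115 and 111 CPM, a log2 fold change of -0.59 ± 0.04 (edgeR adjusted p = 1.67e-09). Its size is just past the fold limit of 0.58, and it was not called with upper-quartile scaling (-0.57). The other partner, *Fnip1* (chr11:54328978-54409067, plus strand), was at 115, 109 and 114 CPM in Neg ESCs and at 79.6, 82.5 and 83.9 CPM in 3xKD ESCs. Its groups did not overlap either, but its log2 fold change of -0.46 ± 0.04 is under the limit.

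*Rragc* (chr4:123811217-123830793, plus strand), which encodes the RagC GTPase that folliculin acts on, was at 72.1, 71.2 and 72.0 CPM in Neg ESCs and at 45.6, 46.5 and 46.9 CPM in 3xKD ESCs. The 3 libraries of each group lay within a narrow band and the log2 fold change was -0.63 ± 0.05 (edgeR adjusted p = 9.83e-09), nearly that of *Flcn*. *Rragd* (chr4:32982984-33025899, plus strand), its paralog and a known target of TFEB and TFE3, fell from 119, 122 and 128 CPM to 77.5, 81.5 and 83.1 CPM (-0.61 ± 0.05, edgeR adjusted p = 7.72e-08). When the counts were corrected for changes in the mean transcript length of each gene, *Rragc* (-0.52) and *Rragd* (-0.44) were not called. The 4 calls also became 2 (*Flcn* and *Rragc*) when the first 3xKD ESC library, the first or second Neg EpiLC library or the third 3xKD EpiLC library was left out, since *Fnip2* and *Rragd* then lay within the fold limit.

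The transcription factor genes moved less in ESCs. *Tfe3* (chrX:7628761-7641444, plus strand) stood at 71.6, 68.5 and 72.1 CPM in Neg ESCs and at 47.1, 49.1 and 51.7 CPM in 3xKD ESCs, a log2 fold change of -0.52 ± 0.05 that is under the limit (edgeR adjusted p = 2.53e-07). *Tfeb* (chr17:48047837-48103348, plus strand) stood at 58.4, 64.5 and 66.9 CPM against 52.2, 55.6 and 51.1 CPM, so that the groups are close but do not overlap (-0.26 ± 0.06). The mTORC1 inhibitors differed by smaller amounts. *Tsc2* (chr17:24814783-24852192, minus strand) was at 124, 132 and 133 CPM in Neg ESCs and at 111, 106 and 114 CPM in 3xKD ESCs (-0.24 ± 0.04), while *Tsc1* (chr2:28531061-28581179, plus strand) had a log2 fold change of -0.12 ± 0.05 with an edgeR adjusted p of 0.0611. *Deptor* (chr15:54975710-55122667, plus strand) was the single gene with a positive value, 0.11 ± 0.04 (edgeR adjusted p = 0.0618). *Tsc2* overlaps *Pkd1* and *Nthl1* on the other strand, which had means of 55.3 and 9.76 CPM.

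The second question was how the genes differ between 3xKD and Neg EpiLCs. There the order of the genes was different: *Tfe3* and *Rragd* were about 2-fold lower in 3xKD cells, *Tfeb* was higher, and the folliculin complex differed by less. Of the 10 genes 3 were called, 1 higher and 2 lower, where 13.2% of all genes were called (7.88% higher and 5.35% lower). Without the fold limit 7 of 10 passed, against 29.9% of all genes, and in 8 of 10 the libraries of the groups did not overlap, against 47.2% of all genes. The median of the 10 was -0.20, and that of all genes 0.03.

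*Tfe3* was at 248, 220.4 and 232 CPM in Neg EpiLCs and at 106, 111 and 104 CPM in 3xKD EpiLCs. The 3xKD libraries lay below every Neg library, with a log2 fold change of -1.12 ± 0.05 (edgeR adjusted p = 1.8e-11), and *Tfe3* was called under all 21 alternatives. *Tfeb* went the other way, from 9.49, 9.13 and 9.48 CPM in Neg EpiLCs to 16.2, 14.6 and 15.5 CPM in 3xKD EpiLCs (0.72 ± 0.07, edgeR adjusted p = 7.29e-07). Both groups are low beside the 51.1 CPM of the lowest ESC library, and with the transcript-length correction *Tfeb* was not called (0.50, edgeR adjusted p = 0.0979). *Rragd* fell from 58.5, 49.5 and 54.9 CPM to 26.2, 27.3 and 25.7 CPM (-1.04 ± 0.06, edgeR adjusted p = 6.79e-10). The naive marker sum was higher, and the formative and neuroectoderm sums lower, in 3xKD EpiLCs than in Neg EpiLCs (values above), and their part in these differences was not tested.

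The remaining genes lay under the fold limit in EpiLCs. *Flcn* was at 55.8, 51.9 and 56.4 CPM in Neg EpiLCs and at 47.8, 47.4 and 44.2 CPM in 3xKD EpiLCs (-0.24 ± 0.05), *Rragc* had a log2 fold change of -0.24 ± 0.05, *Fnip2* of -0.27 ± 0.04 and *Fnip1* of -0.16 ± 0.04. The libraries of these 4 genes did not overlap between the groups, and every one of these values was negative. *Tsc1* (-0.10 ± 0.05) and *Tsc2* (-0.00 ± 0.04) overlapped, and *Deptor* was again slightly positive (0.13 ± 0.04, edgeR adjusted p = 0.0246).

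**Figure D2:**
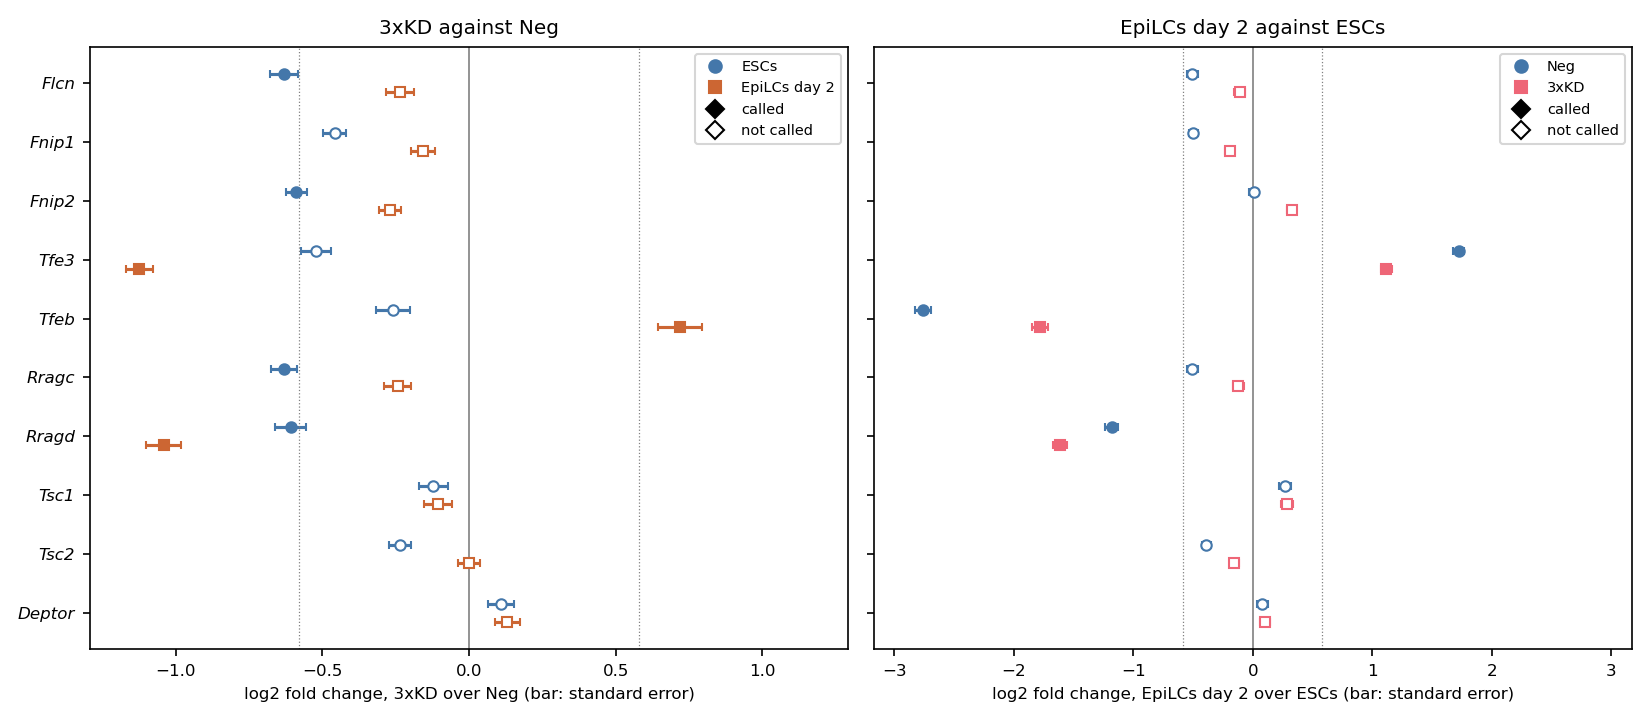
Log2 fold change (± SE from edgeR, 3 libraries per group) of each gene for 3xKD over Neg in ESCs and EpiLCs day 2 (left) and for EpiLCs day 2 over ESCs in Neg and 3xKD cells (right); filled symbols are called and dotted lines mark 0.58 in size. On the left *Flcn* and *Rragc* lie at -0.63 in ESCs and -0.24 in EpiLCs while *Tfe3* lies at -0.52 and -1.12; on the right *Tfe3* is to the right of 0 and *Tfeb* and *Rragd* to the left in both lines.

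The effect of the knockdown was then compared between the states by an interaction term (the log2 fold change in EpiLCs minus that in ESCs, adjusted p under 0.01, no fold limit). This difference was called for 8 of the 10 genes, 6 higher and 2 lower, where 10% of all genes were called (4.76% higher and 5.27% lower). With the stricter count filter it was called for 2763 of 17509 genes. *Flcn* (0.40 ± 0.07), *Rragc* (0.39 ± 0.07), *Fnip2* (0.32 ± 0.05), *Fnip1* (0.30 ± 0.06) and *Tsc2* (0.23 ± 0.05) were less reduced against Neg in 3xKD EpiLCs than in 3xKD ESCs, with edgeR adjusted p between 0.000321 and 0.00502. *Tfeb* had a difference of 0.98 ± 0.09 (edgeR adjusted p = 1.94e-06), its fold change being negative in ESCs and positive in EpiLCs. *Tfe3* (-0.60 ± 0.07, edgeR adjusted p = 8.93e-06) and *Rragd* (-0.43 ± 0.08, edgeR adjusted p = 0.000956) were more reduced in EpiLCs. For *Tsc2* the difference was called in 3 of the 12 fits that left out a library. *Tsc1* and *Deptor* each had a difference of 0.02. With the transcript-length correction the difference was called for 1 of the 10 genes, *Tfe3* (-0.72), and for 731 of all genes in place of 2551, while the other 7 genes kept the sign of theirs.

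The third question was how the genes change as ESCs become EpiLCs. In Neg cells *Tfe3* rose more than 3-fold while its paralog *Tfeb* fell nearly 7-fold, and *Rragd* fell about 2-fold. These 3 genes were called of 10 (1 higher and 2 lower), where 20.8% of all genes were called (9.78% higher and 11% lower). Without the fold limit 8 of 10 passed, against 35.7% of all genes, and 8 of 10 did not overlap, against 51.7%. In 3xKD cells the same 3 genes were called in the same directions, where 18.7% of all genes were called (9.42% higher and 9.32% lower). There 7 of 10 passed without the fold limit, against 33.8%, and 9 of 10 did not overlap, against 51.7%.

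*Tfe3* in Neg cells rose from between 68.5 and 72.1 CPM in ESCs to between 220.4 and 248 CPM in EpiLCs, a log2 fold change of 1.72 ± 0.05 (edgeR adjusted p = 1.46e-14). In 3xKD cells it rose from between 47.1 and 51.7 CPM to between 104 and 111 CPM (1.12 ± 0.05, edgeR adjusted p = 9.36e-12), so that the 3xKD EpiLC libraries lay above every ESC library and below every Neg EpiLC library. *Tfeb* fell by 2.76 on the log2 scale in Neg cells (SE 0.07, edgeR adjusted p = 3.97e-15) and by 1.78 in 3xKD cells (SE 0.06, edgeR adjusted p = 7.58e-13). Its 4 groups do not overlap, in the order Neg ESCs, 3xKD ESCs, 3xKD EpiLCs and Neg EpiLCs. *Rragd* fell by 1.18 in Neg cells (SE 0.05) and by 1.61 in 3xKD cells (SE 0.06), and its 3xKD EpiLC libraries were the lowest of all 12.

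*Flcn*, *Fnip1* and *Rragc* were lower in Neg EpiLCs than in Neg ESCs by like amounts, with log2 fold changes of -0.51 ± 0.05, -0.50 ± 0.04 and -0.51 ± 0.05, all under the limit. In 3xKD cells, where these genes were already low as ESCs, the values were -0.11 ± 0.05, -0.19 ± 0.04 and -0.12 ± 0.05. *Flcn* in 3xKD ESCs (49.1 to 52.1 CPM) was thus near its level in Neg EpiLCs (51.9 to 56.4 CPM), and the ranges overlap. *Fnip2* was alike in both Neg states, at 169 ± 3 CPM and 170.0 ± 3.6 CPM (SD), and higher in 3xKD EpiLCs than in 3xKD ESCs (0.33 ± 0.04). *Tsc1* stood higher in the EpiLCs of each line (0.27 ± 0.05 and 0.28 ± 0.05) and *Tsc2* lower (-0.39 ± 0.04 and -0.16 ± 0.04), all within the fold limit. The comparisons of states and of lines share their libraries, so they are not separate measurements.

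Ratios of paired genes within a library need no scaling between libraries. Ratios of counts also reflect gene length, so their size is no ratio of molecules. The ratios in TPM, which are per length, are given after them and do not move alike for every pair. In counts, *Tfe3* stood to *Tfeb* as 1.12 ± 0.09 (SD) in Neg ESCs, 0.933 ± 0.070 in 3xKD ESCs, 24.9 ± 1.1 in Neg EpiLCs and 6.96 ± 0.55 in 3xKD EpiLCs, with no overlap between any 2 groups. *Rragc* stood to *Rragd* as 0.584 ± 0.020 in Neg ESCs and 0.575 ± 0.013 in 3xKD ESCs, which overlap, and as 0.936 ± 0.092 in Neg EpiLCs and 1.62 ± 0.12 in 3xKD EpiLCs, which do not. *Fnip2* to *Fnip1* was 1.504 ± 0.052, 1.37 ± 0.04, 2.13 ± 0.05 and 1.97 ± 0.05 in the same order of groups. *Tsc2* to *Tsc1* was above 1 in Neg ESCs (1.12 to 1.21), 0.995 to 1.12 in 3xKD ESCs and below 1 in EpiLCs of both lines (0.715 to 0.838). In TPM, *Tfe3* stood to *Tfeb* as 0.749 ± 0.049, 0.564 ± 0.096, 13.4 ± 4.7 and 3.88 ± 0.12 (SD) in the same order of groups. *Rragc* to *Rragd* in TPM was 1.33 ± 0.19, 1.25 ± 0.09, 1.69 ± 0.50 and 3.77 ± 0.65 (SD), so that *Rragc* was the higher of the pair in each group mean. In TPM this ratio overlapped between Neg ESCs (1.12 to 1.49) and Neg EpiLCs (1.22 to 2.21). *Fnip2* to *Fnip1* in TPM was 1.84 ± 0.07, 1.61 ± 0.16, 2.36 ± 0.07 and 2.24 ± 0.07 (SD) in the same order of groups. *Tsc2* to *Tsc1* in TPM was above 1 in every library. It ran from 2.15 to 2.79 in Neg ESCs (mean 2.48). In 3xKD ESCs it was 1.43, 1.69 and 4.52 (mean 2.55), so that this mean rests on the third library. In EpiLCs it ran from 1.17 to 1.47 in Neg cells and from 1.43 to 1.68 in 3xKD cells.

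**Figure D3:**
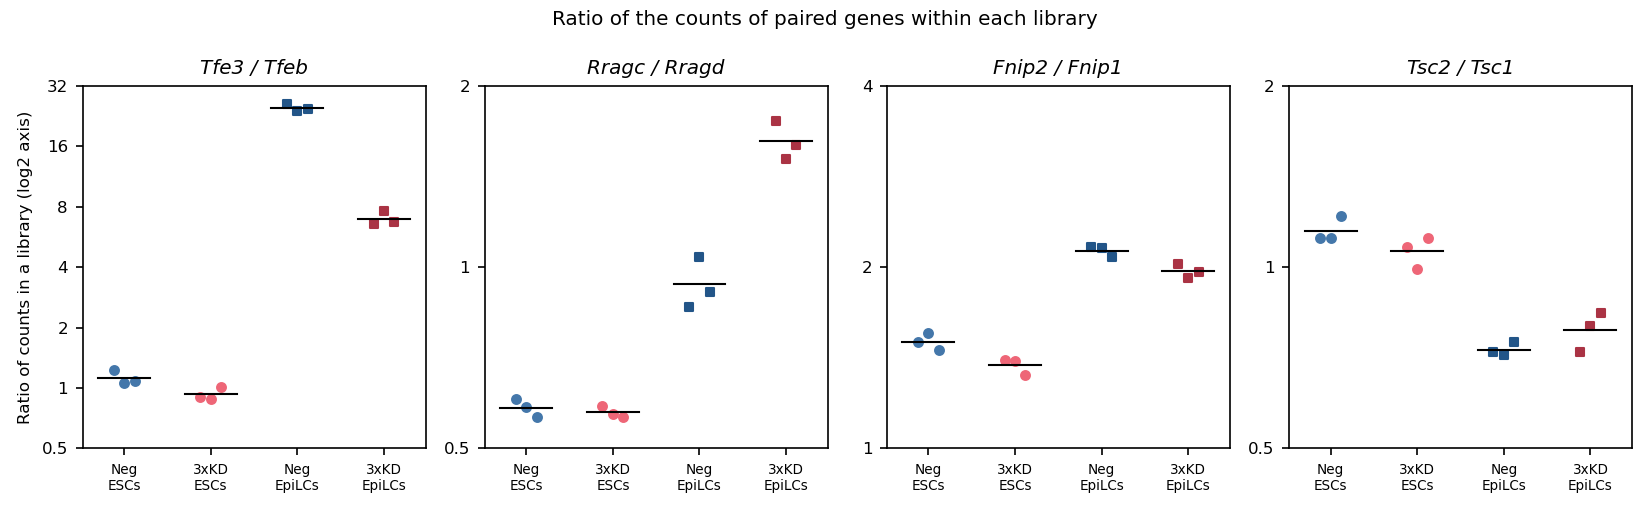
Ratio of the counts of 2 paired genes within each library (log2 axes of different span), for *Tfe3* to *Tfeb*, *Rragc* to *Rragd*, *Fnip2* to *Fnip1* and *Tsc2* to *Tsc1*; points are libraries and lines the means of 3. The count ratio of *Tfe3* to *Tfeb* is near 1 in ESCs, 24.9 in Neg EpiLCs and 6.96 in 3xKD EpiLCs, and the ratios in TPM are 0.749 and 0.564 in Neg and 3xKD ESCs, 13.4 in Neg EpiLCs and 3.88 in 3xKD EpiLCs.

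In TPM (the share of transcripts in a library, corrected for length), the means of the 10 genes in Neg ESCs ran from 7.11 TPM for *Deptor* to 30 TPM for *Tsc2*, in the order *Tsc2*, *Flcn*, *Rragc*, *Fnip2*, *Tfeb*, *Rragd*, *Tfe3*, *Tsc1*, *Fnip1* and *Deptor*, and of neighbours in that order only *Fnip1* and *Deptor* did not overlap. Within single libraries *Tsc2* was above *Flcn* in 3 of 3, while *Flcn* and *Rragc*, *Rragc* and *Fnip2*, and *Tsc1* and *Fnip1* kept the order in 2 of 3. In Neg EpiLCs *Tfe3* was first at 62.6 ± 2.0 TPM (SD) and *Tfeb* last at 5.17 ± 2.18 TPM. There *Tfe3* and *Fnip2*, *Tsc2* and *Flcn*, *Tsc1* and *Rragd*, and *Deptor* and *Tfeb* were the neighbours that did not overlap. In 3xKD ESCs all neighbours overlapped. *Tsc2* had the first mean there, with 14.4, 22.0 and 49.3 TPM, and was above the next gene, *Tfeb*, in 2 of 3 libraries. In 3xKD EpiLCs *Tfe3* was first at 24.8 ± 3.9 TPM and *Rragd* last at 4.30 ± 1.04 TPM. A single transcript took between 15.2% and 29.7% of all TPM in each library, which moves the group means of every other gene and their SD. Orders and ratios within a library are free of this, but short transcripts with few counts can move them. In the third 3xKD ESC library a 137-base transcript took 61.6% of the TPM of *Tsc2*, where *Tsc2* to *Tsc1* was 4.52 in TPM and 1.12 in counts. In the third Neg EpiLC library a 287-base transcript with 3.39 counts took 54.2% of the TPM of *Tfeb*. There *Tfe3* to *Tfeb* was 8.52 in TPM and 24.4 in counts.

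The transcripts of *Flcn* also differed between the lines. A transcript that the GENCODE annotation types as a retained intron (ENSMUST00000148151) took 1.63%, 3.96% and 1.38% of the gene's TPM in Neg ESCs and 23.3%, 14.3% and 26.7% in 3xKD ESCs. In EpiLCs its share was 1.19%, 2.45% and 0.739% in Neg cells and 17.5%, 14.6% and 19.7% in 3xKD cells, so that all 6 3xKD libraries lay above all 6 Neg libraries. The protein-coding ENSMUST00000091246 took between 51.0% and 62.5% in Neg libraries and between 33.6% and 47.1% in 3xKD libraries, again without overlap. Another protein-coding transcript, ENSMUST00000047706, went the other way in ESCs, with 7.08% to 13.6% in Neg and 19.8% to 26.4% in 3xKD libraries. In EpiLCs its ranges overlapped (7.10% to 19.2% and 16.6% to 23.8%). Among other differences in the annotation, an exon of ENSMUST00000148151 runs 311 bases further than in ENSMUST00000091246, over chr11:59686091-59686401.

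These transcripts were chosen after their values were seen and carry no test. A retained intron transcript of *Tsc1* (ENSMUST00000153625) also did not overlap between the lines, at 0.831% to 1.83% in Neg and 3.42% to 5.95% in 3xKD libraries. With ENSMUST00000148151 and ENSMUST00000091246 of *Flcn* it makes the 3 that did not overlap between all Neg and all 3xKD libraries. They are 3 of 49 transcripts of the 10 genes that reached a minimum share of their gene (6.12%). Of all 52700 transcripts that reached it, 2.84% did not overlap. Retained intron transcripts as a class took between 3.42% and 3.72% of the counts in Neg libraries and between 4.11% and 4.21% in 3xKD libraries, and the part of this in the shares of *Flcn* and *Tsc1* was not tested. The shares are estimates from single-end reads, and the labels give the RNA as polyA while their protocol describes ribosomal RNA depletion.

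**Figure D4:**
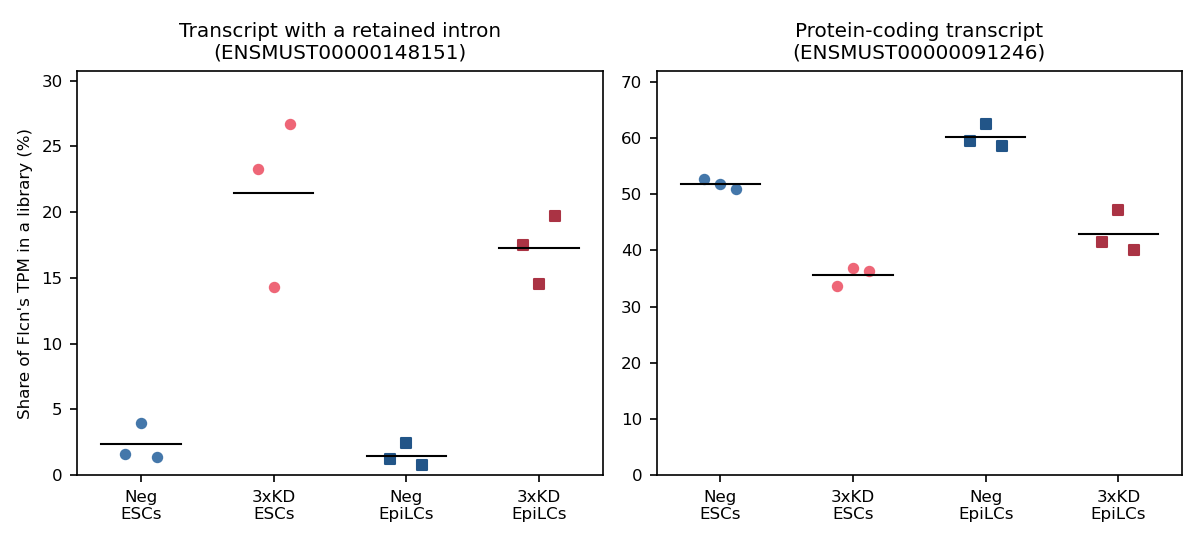
Share (%) of the TPM of *Flcn* in each library that went to the retained intron transcript (left) and to the main protein-coding transcript (right), with axes from 0; points are libraries and lines the means of 3. On the left the 6 Neg libraries lie at or under 3.96% and the 6 3xKD libraries at or above 14.3%.

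The other genes of the pathway, listed from general knowledge, had medians nearer 0. Of 59 tested in GATOR1, GATOR2, KICSTOR, Ragulator, the amino acid sensors, mTOR complexes, AMPK and mTORC1 effectors, 3 were called higher and 6 lower in 3xKD ESCs, and 2 higher and 2 lower in 3xKD EpiLCs, with medians of -0.09 and -0.07. Over all genes 15.3% and 13.2% were called, so with the fold limit these counts, both directions together, are not above the background. By direction, 8.5% of all genes were called higher and 6.78% lower in ESCs, and 7.88% and 5.35% in EpiLCs. Without the fold limit 32 of the 59 passed in each state, against 31.6% of all genes in ESCs and 29.9% in EpiLCs. In ESCs the largest called were *Ddit4* (1.69 ± 0.04), which encodes REDD1, an inhibitor of mTORC1, and *Akt1s1* (-1.04 ± 0.06), which encodes the mTORC1 subunit PRAS40. *Rragb* (-0.84 ± 0.09), which encodes RagB, and *Ulk1* (-0.72 ± 0.03), the autophagy kinase that mTORC1 inhibits, were also lower. The arginine sensor gene *Castor1* was higher in 3xKD cells of both states (0.74 ± 0.06 in ESCs and 1.04 ± 0.06 in EpiLCs).

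Between the states, 6 of the 59 genes were called higher and 6 lower in Neg cells, and 4 higher and 4 lower in 3xKD cells, where 20.8% and 18.7% of all genes were called. *Ulk1* fell by 2.38 on the log2 scale in Neg cells, from 337 ± 4 to 64.8 ± 0.9 CPM (SD), and by 1.36 in 3xKD cells. *Castor2* rose in both (1.496 ± 0.103 and 0.88 ± 0.10), as did *Rhebl1*, a paralog of *Rheb* (0.89 ± 0.12 and 1.404 ± 0.111). Of the 59, the difference between states of the knockdown effect was called for 11 genes, 4 higher, such as *Ulk1* (1.02 ± 0.04), and 7 lower, such as *Ddit4* (-1.13 ± 0.06), where 10% of all genes were called. As given above, the transcript-length correction lowered the calls over all genes for this term from 2551 to 731.

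Lysosome and autophagy genes that TFEB and TFE3 are known to activate were compared next. Of 29 tested, none was called higher and 15 lower in Neg EpiLCs against Neg ESCs (median -0.67, with 11% of all genes called lower), and none higher and 8 lower in 3xKD cells (median -0.32, with 9.32% of all genes called lower). *Hexa*, which encodes a lysosomal enzyme, fell by 1.78 in Neg cells, from 112 ± 3 to 32.5 ± 0.8 CPM (SD), and by 0.97 in 3xKD cells. *Ctsa*, which encodes cathepsin A, fell by 1.64 and 1.11. *Gpnmb*, a glycoprotein gene, fell by 7.32, from 52.3 ± 3.1 to 0.317 ± 0.121 CPM (SD), so that its level in Neg EpiLCs rests on few counts.

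In 3xKD EpiLCs against Neg EpiLCs, 7 of the 29 were called higher and none lower, with 23 values positive and a median of 0.28, where 7.88% of all genes were called higher. *Wipi1*, which acts in autophagosome formation, was at 21.7 ± 1.5 CPM against 7.73 ± 0.75 CPM (SD), a log2 fold change of 1.49 ± 0.11 (SE). In ESCs, where 8.5% of all genes were called higher, 5 of the 29 were, among them *Neu1* (1.01 ± 0.09), the lysosomal sialidase gene, and *Wipi1* (0.85 ± 0.10), and 1 lower, *Gpnmb* (-3.61 ± 0.15), with a median of -0.08. The difference between states was called for 12 of the 29, all higher, where 4.76% of all genes were called higher. *Gpnmb* is among these 12 (5.08 ± 0.43) and among the 7 above, and its level in Neg EpiLCs rests on few counts. The transcript-length correction lowered the calls for this term over all genes from 2551 to 731, and the 29 were not counted under it.

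**Figure D5:**
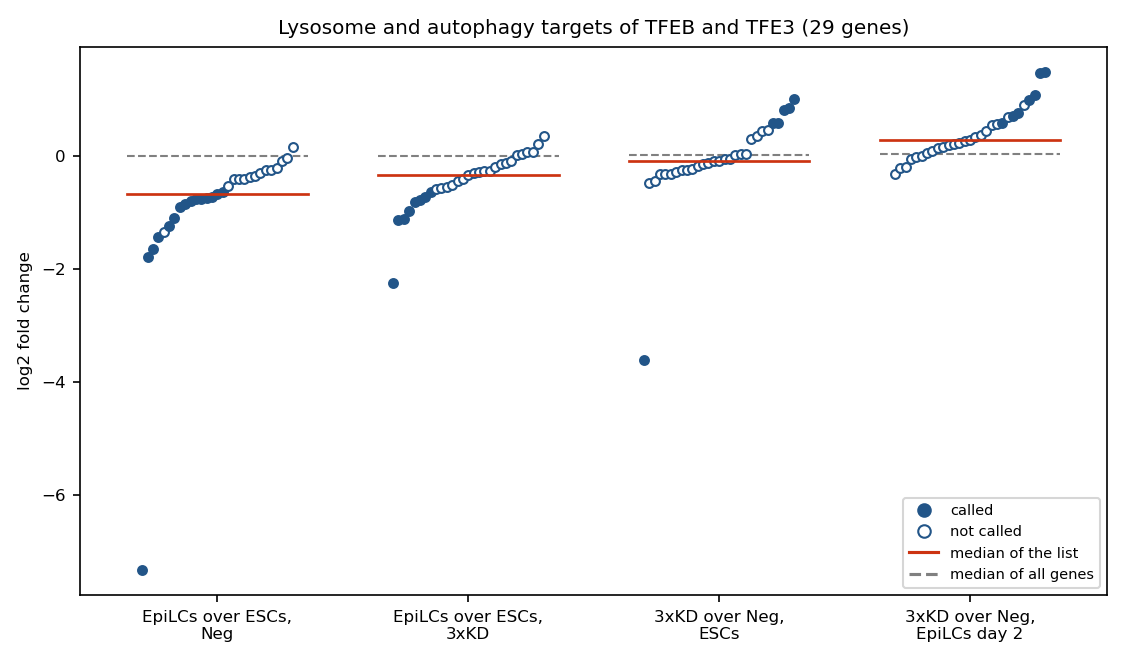
Log2 fold changes (vertical axis) of 29 lysosome and autophagy targets of TFEB and TFE3 in 4 comparisons, each sorted from low to high; filled points are called, solid lines the median of the 29 and dashed lines the median of all genes. The medians are -0.67 and -0.32 for EpiLCs over ESCs in Neg and 3xKD cells and -0.08 and 0.28 for 3xKD over Neg in ESCs and EpiLCs.

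*Esrrb*, the naive pluripotency gene that TFE3 is known to maintain in ESCs, was at 1147 ± 27 CPM in Neg ESCs, 905 ± 7 in 3xKD ESCs, 64.5 ± 1.8 in Neg EpiLCs and 119.6 ± 3.9 in 3xKD EpiLCs (SD). Its log2 fold change in 3xKD cells was -0.34 ± 0.03 in ESCs, under the limit, and 0.89 ± 0.04 in EpiLCs, where it was called, and the difference between states was 1.24 ± 0.05 (edgeR adjusted p = 1.68e-10). *Mitf*, a further member of the TFE3 and TFEB family, fell by 0.93 in 3xKD ESCs (SE 0.07) and by 2.93 from Neg ESCs to Neg EpiLCs (SE 0.09), as *Tfeb* did in the latter.

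Of the 10 genes, *Tfeb*, *Tfe3* and *Rragd* had the widest ranges of group means, 2.63, 2.22 and 2.18 on the log2 CPM scale, and *Deptor* the narrowest, 0.21. Over 15032 genes whose mean reached 1 CPM, those most like *Tfeb* over the 12 libraries were *Pdgfa*, *Esrrb* and *Hap1* (Pearson r of 0.999, 0.998 and 0.998 on log2 CPM). Those most like *Tfe3* were *Akr1b1*, *Arid1a* and *G3bp2* (0.996, 0.995 and 0.995), and those most like *Rragd* were *Sall3*, *Chfr* and *Phlda3* (0.996, 0.995 and 0.993). An r above 0.95 was reached by 726 genes for *Tfeb*, 441 for *Tfe3* and 205 for *Rragd*. The libraries fall into 4 groups, so these r values mostly describe the order of the group means.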

How the data were processed

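RNA was sequenced from 12 libraries, 3 in each of 4 groups, taken from sample titles because the cell-type field gives 1 state to each line. Per the labels' protocol, libraries were ribosomal RNA depleted and directional, while their molecule field gives polyA RNA. The authors trimmed reads with Trim Galore 0.6.7, mapped them to GRCm39 with STAR 2.7.9a and ran Salmon 1.10.1, and deposited estimated counts, which are not normalized, for each of 149132 transcripts. The TPM that the authors deposited are scaled by transcript length and library total.

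For its own tests the study summarized the estimates to genes with tximport and used DESeq2. Its methods do not say whether a transcript-length offset entered those tests. Here the deposited counts were added up for each gene and rounded, with no correction for transcript length. Genes with at least 10 counts over all libraries entered edgeR 4.0.16 (R 4.3.3; TMM factors, quasi-likelihood), with 4 groups in 1 model, which gave the Benjamini-Hochberg adjusted p. SE is the log2 fold change over the square root of F. The model was tested on simulated data. Promoters came from RefSeq (table build GRCm38.p6), placed by exact match to GRCm39, and gene positions from GENCODE vM39. The alternatives were DESeq2 1.42.0, other scaling factors and filters, offsets for transcript length, a block for replicate number, only the groups compared, no fold limit and each library left out. The study describes its experiments in general as biological triplicates, and the labels do not say whether these libraries came from separate cultures, so p-values measure the spread between these libraries. Named genes are the 10, the called genes of each list with the largest changes (at most 3 per direction, not all of them printed), *Esrrb*, *Pcx*, *Me1*, *Me2*, the genes overlapping *Tsc2* and the 3 genes most like each of 3 members. Some items are not reported here. The genes and lists were chosen with earlier results of these data known.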

Additional observations from a re-analysis of the deposited data

Results flagged for a closer look

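For 8 of the 10 genes the effect of the knockdown differed between ESCs and EpiLCs by the interaction term (log2 fold change in EpiLCs minus that in ESCs, edgeR adjusted p under 0.01), where 10% of all genes were called. With the transcript-length correction it was called for 1 of them, *Tfe3*. The differences were 0.40 for *Flcn*, 0.30 for *Fnip1*, 0.32 for *Fnip2* and 0.39 for *Rragc*, 4 genes that were less reduced in EpiLCs, and 0.23 for *Tsc2*, whose log2 fold change was -0.24 in ESCs and -0.00 in EpiLCs. *Tfeb* had a difference of 0.98, from a negative to a positive fold change. *Tfe3* (-0.60) and *Rragd* (-0.43) were lower in 3xKD cells of both states and more so in EpiLCs. For *Tsc2* the difference was called in 3 of the 12 fits that left out a library.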

How the results depend on the processing

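Correcting for the mean transcript length of each gene changed the most. In 3xKD ESCs 2 of the 10 genes were then called (*Flcn* and *Fnip2*), the difference between states was called for 1 (*Tfe3*), *Flcn* was called lower in Neg EpiLCs than in Neg ESCs (-0.67), and *Tfeb* in 3xKD ESCs was near 0 (-0.04). Without the fold limit 8 genes passed in 3xKD ESCs, 7 in 3xKD EpiLCs, and 8 and 7 between the states in Neg and 3xKD cells. Leaving out 1 library gave between 2 and 4 calls in 3xKD ESCs and between 7 and 8 for the difference between states, and 3 in each of the other comparisons.

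Values that changed sign were all small. *Tsc2* in EpiLCs became 0.0068 with RLE factors, 0.0067 with DESeq2, 0.011 with upper-quartile factors, 0.012 with filterByExpr, 0.031 with no filter, 0.058 with library size alone and 0.17 with the transcript-length correction, and lay between -0.0086 and 0.012 with 1 library left out. *Fnip2* between the Neg states became -0.030 with library size alone and -0.098 with the correction, and lay between -0.0084 and 0.054 with 1 library left out. With the correction *Tsc1* became 0.010 in ESCs, and the difference between states became -0.054 for *Tsc1* and -0.010 for *Deptor*. With 1 library left out those differences lay between -0.039 and 0.043 and between -0.042 and 0.049.

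Replicate numbers did not pair the libraries, since the correlations of deviations between libraries of the same number lay between -0.14 and 0.10. With the replicate block 4 genes were called in 3xKD ESCs, 3 in each of 3xKD EpiLCs and the transitions, and 8 for the difference, and no call changed. With TPM in place of CPM, 4 of 40 fold changes moved by more than the spread, all between the Neg states. Precision is limited by 3 libraries a group, and *Tfeb* in EpiLCs by its low level.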
